A study of Mus musculus with 96 samples.

Results

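The spleens of wild type mice with collagen induced arthritis were compared between the 2 experiments in which they were collected, experiment II against experiment I. The 24 arrays were those whose titles give spleen, wild type and the experiment, 12 from each, out of 96 arrays in the series. All mice were males of the strain C57BL/10.Q/rhd, given in the labels as BQ wild type, and all had been immunised. In each experiment 6 mice were killed at day 15 and 6 others at day 44 after immunisation. Spleens of experiment I were extracted with the RiboPure kit of Ambion, whereas those of experiment II were collected in RNAlater, a salt solution that stabilises RNA in tissue, and extracted with the RNeasy mini kit of Qiagen including its optional DNase digestion. Globin transcripts were depleted from all samples, and biotin-labelled cRNA was hybridised to Illumina bead arrays. Kit, stabilisation, DNase step, cohort of mice and time of work all changed together between the experiments, so their effects cannot be told apart. The arrays held no unimmunised mice. The same contrast was also available in 24 spleen arrays of the mutant strain C57BL/10.Q/rhd.Ncf1m1J and in 24 blood arrays of the same wild type mice.

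The spleen filters blood through its red pulp, where macrophages remove aged red cells beside sinusoidal endothelium and a collagenous mesh, and it holds B cell follicles and T cell zones in its white pulp. In immunised mice it is also a site of red cell and granulocyte formation, so it contains dividing precursors. Transcripts of the replication-dependent histone genes are made in dividing cells during DNA synthesis and, unlike other mRNAs, end in a stem-loop in place of a poly(A) tail. In bulk tissue, fewer cells of a type and less RNA per cell cannot be told apart.

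Values are log2 intensities, and a difference is experiment II minus experiment I on that scale, given with its standard error. A gene was called when its limma p-value, adjusted by the Benjamini-Hochberg method over 16593 genes, was under 0.05. The labelled tissue was checked against its defining markers: the B cell receptor chains Cd79a and Cd79b had medians of 12.08 and 13.47 over the 24 arrays, the T cell receptor chains Cd3e and Cd3g 9.89 and 10.08, and the red pulp macrophage genes Spic and Vcam1 10.92 and 12.83. Cd5l, a further red pulp macrophage marker, stayed at 5.69 to 6.13, below the mean of the median gene (6.47).

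A few arrays of experiment I stood apart. On the first principal component, which held 59.1% of the variance of 6572 genes with a mean above 7, the day 15 array of mouse 22 had a score of -42.9, while the other 5 arrays of its group lay between -0.25 and 8.12 and the day 44 arrays of experiment I between -46.6 and -30.6. All 12 arrays of experiment II lay between 13.2 and 26.2, and their days overlapped. The mean correlation of mouse 22 with the other day 15 arrays of experiment I was 0.956, against 0.988 with the day 44 arrays of that experiment. Whether its label is right was not tested, and the day 15 values that moved most without it are given with and without the array labelled day 15, mouse 22. Transcripts of exocrine pancreas, an organ that lies against the spleen, were high in 3 further arrays of experiment I, namely mice 14 and 16 at day 15 and mouse 37 at day 44, with list means of 11.7, 7.39 and 9.78. The elastase Cela2a, one of these transcripts, was also raised in mice 38 and 39 at day 44 and mouse 22, at 10.34, 8.66 and 8.15, against 6.21 to 6.55 in the other 6 arrays of experiment I and 6.02 to 6.27 over experiment II.

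**Figure D1:**
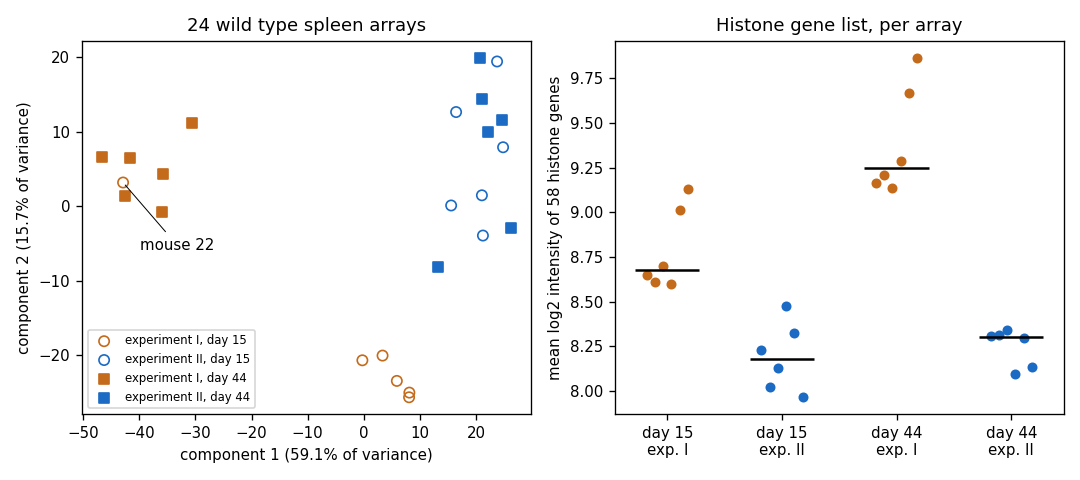
Left, scores of the 24 wild type spleen arrays on the first 2 principal components, with open circles for day 15, filled squares for day 44, orange for experiment I and blue for experiment II. Right, mean log2 intensity of 58 histone genes in each array, with the median of each group of 6 as a bar. The array of mouse 22 lies among the day 44 arrays of experiment I, and every array of experiment II has a lower histone mean than every array of experiment I.

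Over both days 7182 of the 16593 genes were called, which is 43.3%, with 3793 higher (22.9%) and 3389 lower (20.4%) in experiment II. Differences above 1 log2 unit were found in 272 called genes that were higher and 175 that were lower. The standard error of a difference had a median of 0.057, and the median absolute difference of called genes was 0.36. In 607 genes (3.66%) the 12 arrays of one experiment did not overlap the 12 of the other, with 417 of them higher in experiment II and 190 lower.

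The C-type lectin gene Clec2d, whose product is a ligand of the NK cell receptor Nkrp1d in mice, had the largest difference. Its intensities ran from 7.05 to 9.61 with a median of 8.63 in experiment I and from 11.71 to 12.93 with a median of 12.24 in experiment II. The experiments did not overlap, and the gene was 12.4-fold higher in experiment II (log2 difference 3.63 ± 0.21, adjusted p = 1.9e-11), by 3.84 at day 15 and 3.43 at day 44. Taf15, an RNA-binding protein of the FET family, lay between 6.61 and 7.63 in experiment I and between 9.38 and 10.22 in experiment II, a difference of 2.38 ± 0.11, with 2.46 at day 15 and 2.30 at day 44. Metrn, a secreted regulator of glial differentiation, was higher by 2.47 ± 0.16, from a median of 7.23 to 9.83, without overlap.

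Tgfb1, the cytokine transforming growth factor beta 1, differed more at the later day. Its levels in experiment I were 7.93 to 10.14 (median 9.89) at day 15 and 7.79 to 8.52 (median 8.01) at day 44, whereas in experiment II they were 10.71 to 11.56 (median 11.09) and 10.39 to 11.84 (median 11.61). The experiments did not overlap at either day. The difference was 1.56 ± 0.29 at day 15 (1.24 without mouse 22) and 3.39 at day 44, and the change between days passed the test (adjusted p = 0.010). The other genes among the 12 largest rises were Tatdn2 (2.29), the selenoprotein gene Selenow (2.20), Pigt, a subunit of the GPI transamidase (2.18), Prrc2a (2.14), the globin gene Hbb-bt (2.05), Vat1 (2.05), the clathrin adaptor subunit Ap2b1 (2.03) and the matrix glycoprotein tenascin XB, Tnxb (2.01). Of Tnxb, 3 of 4 probes were higher by 2.01 to 2.29, while Ap2b1 was higher on 1 of its 5 probes, lower on 2 and not called on 2.

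Among the 12 largest falls, 7 were histone genes, described next. Msrb1, a selenoprotein that repairs oxidised methionine, had levels of 8.53 to 8.71 in 5 of the 6 day 15 arrays of experiment I, 11.44 in mouse 22 and 10.86 to 11.71 at day 44, against 7.56 to 8.20 over experiment II. It was lower in experiment II, with differences of -1.15 at day 15 (-0.68 without mouse 22) and -3.45 at day 44. Its second probe was slightly higher in experiment II, by 0.31 ± 0.08. The ribosomal protein gene Rpl7a ran from 10.23 to 11.16 in experiment I and from 7.83 to 9.48 in experiment II, a difference of -1.91 ± 0.16, with -2.03 at day 15 and -1.80 at day 44. Car2, the carbonic anhydrase of red cells and their precursors, was lower, at -1.96 ± 0.34, with overlap, and Stap1, an adaptor of B cell receptor signalling, was lower, at -1.74 ± 0.17, without overlap. Cela2a, a pancreatic elastase, had the lowest difference of all, -2.64 ± 0.91, but it ranged from 6.21 to 14.92 within experiment I, and without the 3 arrays with the highest pancreas list means the difference was -1.07.

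**Figure D2:**
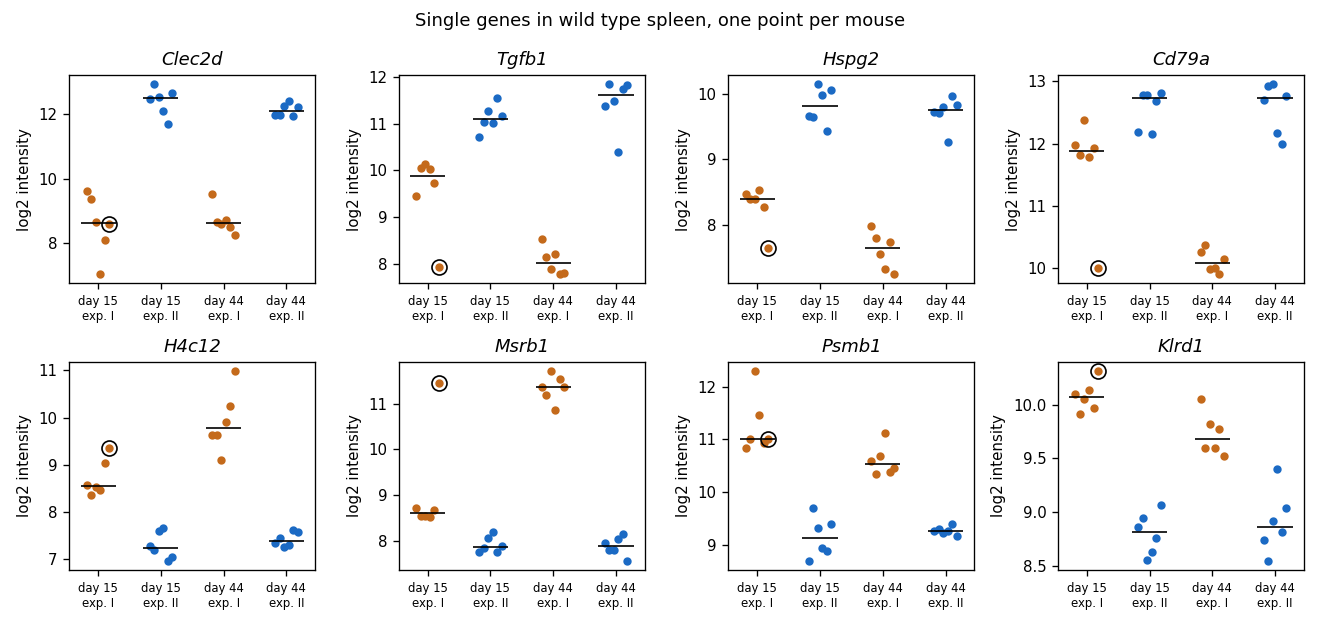
Log2 intensity of 8 genes in each of the 24 wild type spleens, by day and experiment, with the group median as a bar. The circled point is mouse 22 of experiment I. Clec2d, Hspg2, Psmb1 and Klrd1 are separated between the experiments at both days, while Tgfb1, Cd79a, Msrb1 and H4c12 stand farther apart at day 44.

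Among the lists of more than 3 genes, the histone list had the highest share of called genes. Of 58 measured, 50 were lower and 3 higher in experiment II, a called share of 91.4% beside 43.3% of all genes, with a median difference of -0.94 beside 0.0039 over all genes. All 11 H4 genes and all 9 H3 genes of the replication-dependent kind were called lower, as were 14 of 15 H2A genes and 10 of 12 H2B genes, with medians of -1.29, -1.12, -0.86 and -1.01. Of the 9 linker histone H1 genes, 4 were lower and 1, H1f10, was higher by 0.24. The genes H3f3a and H3f3b, which encode the replication-independent variant H3.3 from polyadenylated mRNA, were lower as well, at -1.17 ± 0.17 and -0.54 ± 0.10. H2ac1 and H2bc1, histone genes of the testis, were higher by 0.19 and 0.17.

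Of the histone genes with a mean above that of the median gene, 44 of 44 were lower, 28 of them by more than 1 log2 unit. Among all 8296 genes above that level, 2452 were lower, 175 of them by more than 1 log2 unit. Per array, the mean of the 58 genes ran from 8.60 to 9.13 (median 8.67) in experiment I at day 15 and from 9.14 to 9.87 (median 9.25) at day 44. In experiment II it ran from 7.96 to 8.47 (median 8.18) at day 15 and from 8.09 to 8.34 (median 8.30) at day 44. The 2 experiments thus did not overlap at either day, and the gap was wider at day 44. At day 15, 25 histone genes were lower and 0 higher, where 7.44% of all genes were lower and 10.9% higher, while at day 44, 49 were lower and 3 higher, where the shares of all genes were 20.2% and 21.1%. The list median was -0.45 at day 15 (-0.41 without mouse 22) and -1.35 at day 44.

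H4c12, a histone H4 gene of the large cluster on chromosome 13, had values of 8.37 to 9.35 (median 8.56) at day 15 and 9.10 to 10.99 (median 9.77) at day 44 in experiment I, and of 6.97 to 7.67 (median 7.24) and 7.25 to 7.62 (median 7.39) in experiment II. All 12 arrays of experiment II lay below all 12 of experiment I, and the difference was -1.96 ± 0.16 (adjusted p = 1.7e-09), with -1.43 at day 15 (-1.30 without mouse 22) and -2.50 at day 44. H2ac15, an H2A gene, lay between 13.11 and 14.72 in experiment I and between 11.12 and 12.89 in experiment II, a difference of -2.04 ± 0.20. Copies of a histone type are nearly identical in sequence, so a probe named for 1 copy may also bind transcripts of others, and the genes of a type are not separate measurements.

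The promoters of these genes are shown because the histone genes moved together. The sequences are those of RefSeq on GRCm38.p6, from 250 bases before to 50 after the annotated start and written along the gene's own strand. Capitals mark 3 motifs searched on both strands, which do not overlap in the sequences shown: the octamer ATTTGCAT, known from histone H2B promoters as a site of POU factors, the CCAAT box (CCAAT) and the TATA box (TATAAA). H2ac12 (chr13:22035594-22035893, minus strand; difference -1.66), H2bc14 (chr13:21721794-21722093, plus strand; -1.08) and H4c12 (chr13:21750504-21750803, minus strand; -1.96) were lower in experiment II. Clec2d (chr6:129180365-129180664, plus strand) and Tgfb1 (chr7:25686752-25687051, plus strand) are shown beside them as genes that were higher.
H2ac12: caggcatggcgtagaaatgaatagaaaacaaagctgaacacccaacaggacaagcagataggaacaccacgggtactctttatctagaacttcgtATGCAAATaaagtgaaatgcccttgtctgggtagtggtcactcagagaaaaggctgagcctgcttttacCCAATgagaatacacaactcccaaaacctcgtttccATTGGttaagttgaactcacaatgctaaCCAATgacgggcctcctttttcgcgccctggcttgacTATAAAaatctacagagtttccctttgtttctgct
H2bc14: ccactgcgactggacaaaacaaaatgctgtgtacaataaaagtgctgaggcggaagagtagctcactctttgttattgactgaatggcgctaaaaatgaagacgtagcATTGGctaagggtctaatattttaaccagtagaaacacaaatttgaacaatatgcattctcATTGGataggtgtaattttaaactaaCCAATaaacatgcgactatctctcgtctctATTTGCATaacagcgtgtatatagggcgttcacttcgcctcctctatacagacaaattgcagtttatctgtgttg
H4c12: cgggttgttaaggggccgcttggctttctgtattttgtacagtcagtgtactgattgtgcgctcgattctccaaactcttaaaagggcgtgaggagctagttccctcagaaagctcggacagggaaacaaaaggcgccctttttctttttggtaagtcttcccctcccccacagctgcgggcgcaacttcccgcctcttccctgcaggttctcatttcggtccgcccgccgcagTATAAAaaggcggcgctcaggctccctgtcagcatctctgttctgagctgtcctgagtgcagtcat
Clec2d: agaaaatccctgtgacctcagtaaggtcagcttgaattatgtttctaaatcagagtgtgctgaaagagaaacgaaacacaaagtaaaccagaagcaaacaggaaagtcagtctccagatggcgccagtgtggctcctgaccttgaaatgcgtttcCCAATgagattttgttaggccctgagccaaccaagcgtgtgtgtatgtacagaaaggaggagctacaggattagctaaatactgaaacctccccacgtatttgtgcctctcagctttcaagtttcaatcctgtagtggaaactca
Tgfb1: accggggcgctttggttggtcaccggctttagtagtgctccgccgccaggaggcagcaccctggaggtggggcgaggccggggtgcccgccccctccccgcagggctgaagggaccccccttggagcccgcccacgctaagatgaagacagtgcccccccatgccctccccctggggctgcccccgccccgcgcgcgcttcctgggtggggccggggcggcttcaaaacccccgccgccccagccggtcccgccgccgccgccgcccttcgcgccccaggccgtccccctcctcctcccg

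The H2A promoter holds the octamer on the reverse strand, 3 CCAAT boxes and a TATA box, and the H2B promoter the octamer and 3 CCAAT boxes. In the H4 promoter only the TATA box was found, in that of Clec2d a single CCAAT box, and in that of Tgfb1, with 77.0% G and C, none of the 3. A promoter was at hand for 13335 of the genes tested. The octamer was found in 267 of them (2.0%), but in 7 of 11 H2B genes, 6 of 15 H2A genes and 0 of 10 H4 genes. CCAAT was found in 42.5% of all genes and in 11 of 11 H2B, 15 of 15 H2A and 2 of 10 H4 genes, and TATAAA in 14.3% of all genes and 30 of 54 histone genes. The median G and C content of promoters was 60.3% for genes called higher, 58.7% for genes called lower, 55.7% for genes not called and 45.5% for histone genes.

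Genes of the cell cycle, which mark dividing precursors, differed at day 44 but hardly at day 15. Of 59 measured, 26 were lower and 3 higher over both days, a called share of 49.2% beside 43.3% of all genes. Over all genes 20.4% were lower and 22.9% higher. Of the 59, 44 had a mean above that of the median gene, where 63.6% of all genes were called. At day 15 there were 2 lower and 1 higher with a median of 0.021, where 7.44% of all genes were lower, and at day 44 there were 31 lower and 1 higher with a median of -0.43, where 20.2% of all genes were lower. Ccne2, the cyclin E2 of the G1 to S transition, was at 6.61 to 8.09 (median 6.95) and 7.76 to 9.85 (median 8.70) at days 15 and 44 of experiment I. In experiment II it was at 6.01 to 6.91 (median 6.36) and 6.08 to 6.55 (median 6.24). Its groups overlapped at day 15 and not at day 44. The difference was -0.86 at day 15, which did not pass without mouse 22 (-0.69, adjusted p = 0.092), and -2.50 at day 44 (adjusted p = 4.3e-07). Tyms, which makes thymidylate for DNA synthesis, was lower, at -1.47 ± 0.24 over both days, as was Mad2l1, of the spindle checkpoint, at -1.07 ± 0.16, whereas Ccnd1 was higher by 0.69 ± 0.12. The per-array mean of this list was 8.43 to 9.18 in experiment I against 7.66 to 8.51 in II at day 44, and that of the erythroid list was 9.23 to 10.11 and 8.53 to 9.71. At day 44, 12 of 33 erythroid genes were lower and 2 higher, where 20.2% of all genes were lower and 21.1% higher. Both lists thus had more genes lower than higher at day 44. Their per-array ranges overlapped between the experiments, however, while those of the histone list did not. The part of the cell cycle and erythroid genes in the histone difference was not tested.

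**Figure D3:**
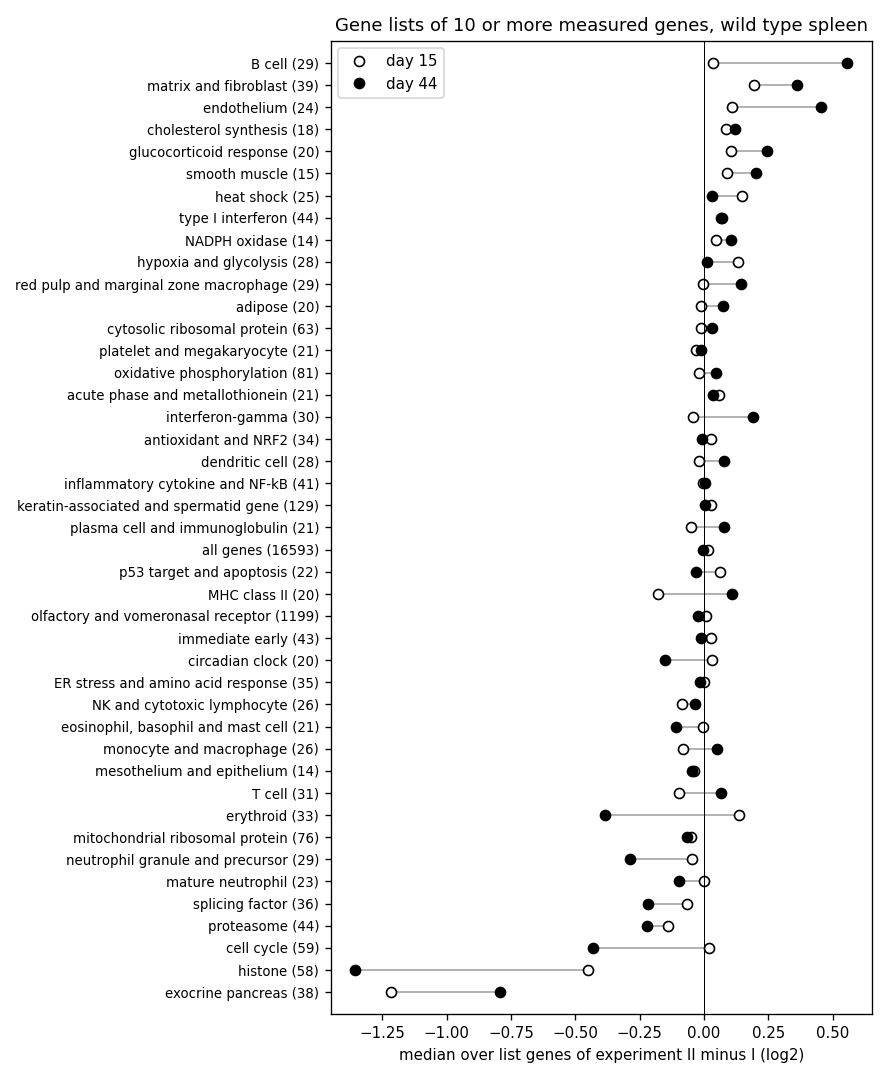
Median log2 difference between the experiments over the genes of each list at day 15 (open) and day 44 (filled), with the number of measured genes in brackets. The histone list stands at -0.45 and -1.35, and the B cell list moves from 0.036 to 0.56. The exocrine pancreas median over both days, -1.07, is -0.069 without the 3 arrays of experiment I with the highest means of that list.

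Genes of B cells were higher in experiment II mainly at day 44. Of 29 measured, 16 were higher and 5 lower over both days, a called share of 72.4%, with a median of 0.31. Over all genes 22.9% were higher and 20.4% lower. However, 26 of the 29 had a mean above that of the median gene, where 63.6% of all genes were called. At day 15, 5 were higher and 6 lower, where 10.9% of all genes were higher and 7.44% lower. The median of the list was 0.036 and became -0.084 without mouse 22. At day 44, 17 were higher and 3 lower, with a median of 0.56, where 21.1% of all genes were higher and 20.2% lower. The change between days passed for 13 of the list, all upward, where 6.06% of all genes passed upward and 5.81% downward. Per array, the list mean was 9.41 to 9.62 (median 9.55) in experiment I at day 44, below all arrays of experiment II, and 10.00 to 10.23 (median 10.03) in experiment II at that day. At day 15 the experiments overlapped, at 9.61 to 10.33 (median 10.13) and 9.82 to 10.36 (median 10.04).

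Cd79a, the signalling chain of the B cell receptor, lay at 10.00 to 12.38 (median 11.88) and 9.91 to 10.38 (median 10.08) at days 15 and 44 of experiment I, with the value 10.00 in mouse 22. In experiment II it was at 12.15 to 12.81 (median 12.73) and 12.00 to 12.95 (median 12.73). The difference was 0.92 at day 15 (0.59 without mouse 22) and 2.47 at day 44. Spib, a transcription factor of B cells, was higher by 1.02 at day 15 and 1.21 at day 44, and Dtx1, a Notch regulator of marginal zone B cells, by 0.82 (0.63 without mouse 22) and 1.90 at these days. Ms4a1, which encodes CD20, was not called (-0.12 ± 0.07). Differences of the 29 list genes ran from -0.94 to 1.69 over both days, with 5 genes called lower.

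Of 20 MHC class II genes, 6 were higher and 2 lower, and their called share of 40% was close to the 43.3% of all genes. It was below the 63.6% of genes with a mean above that of the median gene, where 19 of the 20 lay. Cd74, the invariant chain, was at 13.13 to 14.94 (median 14.62) and 12.84 to 13.35 (median 13.09) at days 15 and 44 of experiment I, and at 14.56 to 15.13 (median 14.87) and 14.74 to 15.00 (median 14.87) in experiment II. At day 15 the groups overlapped and the difference of 0.45 did not pass in limma (adjusted p = 0.12), nor did that of 0.19 without mouse 22 (adjusted p = 0.21), while at day 44 they were separate with a difference of 1.79. H2-Ab1, a class II beta chain, was higher by 0.98 ± 0.14 on its brightest probe, and 3 of its 4 probes were called higher. H2-Ea, the class II E alpha chain, was lower, at -1.01 ± 0.10, without overlap, with -1.12 at day 15 and -0.90 at day 44.

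Of 31 T cell genes 6 were higher and 7 lower, with a median of -0.046 and a called share of 41.9%, close to that of all genes. However, 26 of the 31 had a mean above that of the median gene, where 63.6% of all genes were called. Cd4, the coreceptor of helper T cells, was higher by 0.98 ± 0.07 without overlap, and Thy1 by 1.11 ± 0.16, with a difference of 0.41 at day 15 that did not pass (adjusted p = 0.22, and 0.55 without mouse 22, where the difference was 0.14) and 1.80 at day 44. Rgs10, a regulator of G protein signalling, and Trat1, an adaptor of the T cell receptor, were lower, at -1.04 ± 0.15 and -0.71 ± 0.11. Of 26 NK and cytotoxic lymphocyte genes 6 were higher and 8 lower (53.8% called). Klrd1, the CD94 chain of NK receptors, ran from 9.52 to 10.31 (median 9.94) in experiment I and from 8.55 to 9.40 (median 8.84) in experiment II. It did not overlap and was lower, at -1.05 ± 0.08, whereas Il2rb and the transcription factor Tbx21 were higher by 0.51 ± 0.05 and 0.64 ± 0.07.

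Endothelial and matrix genes were mostly higher in experiment II. Of 24 endothelial genes 15 were higher and 2 lower, with a median of 0.28 (0.11 at day 15, or 0.072 without mouse 22, and 0.45 at day 44). Of 39 matrix and fibroblast genes 20 were higher and 5 lower, with a median of 0.31 (0.19 at day 15, or 0.10 without mouse 22, and 0.36 at day 44). Over all genes 22.9% were higher and 20.4% lower. In these lists 20 and 34 genes had a mean above that of the median gene, where 63.6% of all genes were called. The lowest differences in the lists were -0.52 and -0.64. Plvap, a diaphragm protein of fenestrated endothelium, was at 10.21 to 11.23 (median 11.07) and 9.81 to 10.39 (median 10.01) in experiment I, and at 11.47 to 11.93 (median 11.85) and 11.69 to 12.17 (median 11.91) in experiment II. The experiments did not overlap at either day, and the difference went from 0.83 at day 15 (0.68 without mouse 22) to 1.87 at day 44 (adjusted p of the change = 0.0074). Tie1, Stab2, a scavenger receptor of splenic sinusoids, and Eng were higher by 1.27, 1.32 and 1.34, each without overlap. Hspg2, the basement membrane proteoglycan perlecan, ran from 7.24 to 8.53 (median 7.88) in experiment I and from 9.26 to 10.15 (median 9.76) in experiment II, a difference of 1.83 ± 0.11. Col4a2 and Col1a1, collagen chains of basement membrane and interstitium, were higher by 1.64 and 1.17.

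Red pulp and marginal zone macrophage genes were higher in 11 of 29 and lower in 5 (55.2% called). Over all genes 22.9% were higher and 20.4% lower. Of the 29, 26 had a mean above that of the median gene, where 63.6% of all genes were called. Hmox1, which degrades haem, was higher by 1.69 ± 0.15, the complement gene C6 by 1.12 ± 0.09 and the scavenger receptor Marco by 0.93 ± 0.10, while Spic, the transcription factor of red pulp macrophages, was lower, at -0.74 ± 0.14. Among monocyte and macrophage genes, 5 of 26 were higher and 6 lower, with Apoe, a lipid carrier, higher by 1.70 ± 0.17 and Tlr4, the receptor of lipopolysaccharide, lower, at -0.34 ± 0.06. Of 33 erythroid genes 4 were higher and 8 lower, a called share of 36.4% beside 43.3% of all genes, with medians of 0.14 at day 15 (0.22 without mouse 22) and -0.385 at day 44. Hbb-bt, an adult beta globin gene and a target of the globin depletion, was scattered from 7.10 to 11.51 in experiment I and lay at 10.91 to 12.45 in experiment II, where it was higher by 2.05 ± 0.30 with overlap. The alpha globin gene Hba-a1, at 12.53 to 15.23 with a median of 15.06, was not called in limma (0.24 ± 0.19, adjusted p = 0.345). It reached the top of the intensity scale (15.23), so its difference may be understated. Hbb-b2, a further beta globin gene with a median of 6.48, was higher by 0.96 ± 0.11. Of 21 platelet genes 5 were higher and 8 lower: the integrin Itga2b was higher by 1.12 ± 0.15, and the chemokine Ppbp was lower, at -1.68 ± 0.23, or -0.67 ± 0.17 on its other probe, of about the same mean level. Of 23 genes of mature neutrophils 2 were higher and 7 lower. Called shares were 42.3% of the monocyte and macrophage, 61.9% of the platelet and 39.1% of the mature neutrophil genes. In these lists and the erythroid list, 20, 16, 16 and 27 genes had a mean above that of the median gene.

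Among lists of cell machinery, the proteasome had more genes lower than higher, with 22 of 44 lower and 7 higher and a median of -0.19. Its called share was 65.9%, and 40 of the 44 had a mean above that of the median gene, where 63.6% of all genes were called. Over all genes 20.4% were lower and 22.9% higher. The per-array mean of the proteasome list was 9.93 to 10.14 over experiment I and 9.67 to 9.89 over experiment II, without overlap. Psmb1, a beta subunit of the core particle, ran from 10.34 to 12.30 (median 10.89) in experiment I and from 8.70 to 9.70 (median 9.26) in experiment II, with differences of -2.10 at day 15 and -1.33 at day 44. Psme2, a subunit of the interferon-inducible activator, was lower, at -1.13 ± 0.12. Mitochondrial ribosomal protein genes were lower in 30 of 76 and higher in 12 (55.3% called), splicing factor genes lower in 17 of 36 and higher in 10 (75% called). Of these genes 69 of 76 and 30 of 36 had a mean above that of the median gene. Srsf2, a splicing factor, was higher by 1.16 ± 0.07 on its brightest probe and lower, at -0.40 ± 0.12, on another. Cytosolic ribosomal protein genes were higher in 21 of 63 and lower in 16 (58.7% called), and 55 of the 63 had a mean above that of the median gene. Rps15 ran from 12.05 to 13.09 and from 11.54 to 12.01 at days 15 and 44 of experiment I. Over experiment II it ran from 13.15 to 13.60. It was higher there by 1.02 ± 0.09, with 0.43 at day 15 (0.28 without mouse 22) and 1.61 at day 44.

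Of 18 genes of cholesterol synthesis and its regulation, 9 were higher and 7 lower, a called share of 88.9% beside 43.3% of all genes. Of the 18, 16 had a mean above that of the median gene, where 63.6% of all genes were called. Fdps, which makes farnesyl pyrophosphate, ran from 7.56 to 8.45 (median 8.18) in experiment I and from 9.57 to 10.34 (median 9.84) in experiment II. It did not overlap and was higher by 1.77 ± 0.10, by 1.85 at day 15 and 1.70 at day 44, whereas the sterol carrier gene Stard4 was lower, at -0.82 at day 15 and -1.19 at day 44. Immediate early genes, which respond within minutes to handling of cells and tissue, were higher in 13 of 43 and lower in 12, a called share of 58.1%. Of the 43, 32 had a mean above that of the median gene. Junb ran from 8.01 to 10.16 in experiment I and from 9.68 to 11.13 in experiment II, with overlap, and was higher by 1.46 ± 0.19 (0.91 at day 15, or 0.66 without mouse 22, and 2.00 at day 44). Heat shock genes were higher in 9 of 25 and lower in 6 (60% called), with Bag3, a cochaperone, higher by 1.05 ± 0.10. Of the 25, 18 had a mean above that of the median gene. The stress gene Ddit4 was higher by 1.51 ± 0.18 and Pkm, of glycolysis, by 1.47 ± 0.13, whereas Dnajc3 of the endoplasmic reticulum was lower, at -1.24 ± 0.12. Type I interferon genes were higher in 17 of 44 and lower in 8 (56.8% called), with a median of 0.072. Of the 44, 32 had a mean above that of the median gene, where 63.6% of all genes were called. Ly6e, Sp100 and Stat2 were higher by 1.21, 0.92 and 0.63, while the lowest difference in the list was -0.60.

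Genes of tissues that spleen does not contain gave the reach of the test at low intensity. Of 1199 olfactory and vomeronasal receptor genes, 15 had a mean above the median gene, and 82 were higher and 112 lower (16.2%), with differences from -0.57 to 0.45. Over all genes 22.9% of those not above the median level and 63.6% of those above it were called. Of 38 exocrine pancreas genes 0 were higher and 2 lower over both days, with a median of -1.07 that was -0.069 without the 3 arrays named above. Ncf1, the NADPH oxidase subunit mutated in the other strain of the series, was at 6.66 to 7.41 (median 7.15) in experiment I against 7.04 to 7.91 (median 7.43) in experiment II, with overlap and a difference of 0.32 ± 0.09.

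The difference between the experiments had the same direction at both days for most genes but was mostly larger at day 44. At day 15 3035 genes were called (18.3%, 1801 higher and 1234 lower) and at day 44 6856 (41.3%, 3501 higher and 3355 lower). Of the genes called at day 15, 2817 (92.8%) had the same sign at day 44, and 2262 were also called there with that sign, which is 74.5% of the day 15 calls. In 1696 of these 2262 the day 44 difference was the larger. Over all genes the differences of the days, which share no array, had a Pearson r of 0.69 across genes and standard deviations of 0.30 at day 15 and 0.50 at day 44. Genes are not independent replicates, so this r is a description.

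**Figure D4:**
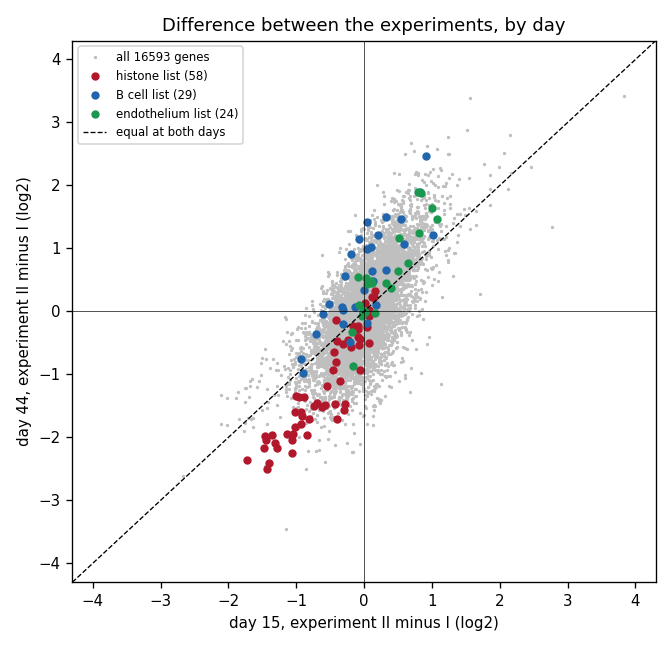
Log2 difference between the experiments at day 15 (horizontal) and day 44 (vertical) for each of 16593 genes, with histone, B cell and endothelial genes in colour and the line of equal difference dashed. Histone genes lie low on both axes and mostly below the line, while B cell genes spread upward near 0 on the day 15 axis.

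The test of the change between days called 1970 genes (11.9%), 1006 (6.06%) with a more positive and 964 (5.81%) with a more negative difference at day 44. In 1115 of them the sign was the same and the difference larger at day 44, in 33 it was the same and larger at day 15, and in 822 the signs differed. Only 31 of the latter were called at each day. The smallest p-values were those of Tmem192, a lysosomal membrane protein, Rps15, Selplg, Mrpl49 and the meiotic cohesin Rec8. Selplg, the leukocyte ligand of P-selectin, was at 10.15 to 11.49 (median 11.29) in experiment I against 10.96 to 11.50 (median 11.28) in II at day 15, and at 9.88 to 10.29 (median 10.09) against 11.50 to 11.93 (median 11.71) at day 44. The groups overlapped at day 15, with a difference of 0.14 (-0.05 without mouse 22), and were separate at day 44, with a difference of 1.61. Tmem192 changed from -0.11 at day 15 (-0.19 without mouse 22) to 0.89 at day 44. Rec8 changed from 0.16 (0.22) to -0.84 and Mrpl49 from 0.03 (0.16) to -0.86, although 1 of the 4 probes of Mrpl49 went the other way over both days.

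The number of genes called for the change between days moved with mouse 22 and with the 3 arrays highest in pancreas transcripts. Without mouse 22 the change between days was called in 3846 genes (23.2%), 2559 of 3251 genes called at day 15 (19.6% called, 8.16% lower) had the same sign at day 44, which is 78.7%, 370 genes were called at both days with opposite signs, and r was 0.50. Without the 3 arrays highest in pancreas transcripts limma called 0 genes for the change between days, although 3071 had an unadjusted p under 0.05, and without those and mouse 22 it called 3107. Without the 3 arrays the change was 1.14 for Rps15 and 1.42 for Selplg (adjusted p = 0.060 for each) beside 1.18 and 1.47 with all arrays. The count over both days moved less, to 7031 (42.4%, 19.9% lower), 6635 and 6161 genes in the settings without mouse 22, without the 3 arrays and without both.

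The days differed within experiment I. Day 44 against day 15 within experiment I called 4341 genes (26.2%), and 5401 (32.5%) without mouse 22. Within experiment II, limma called 0 genes for the same change, with 482 at an unadjusted p under 0.05. Among the 1970 genes called for the unequal difference, the absolute change between days had a median of 0.68 in experiment I but 0.080 in II, and 1930 of them were called between days in experiment I. By list, histone genes changed by a median of 0.70 from day 15 to day 44 in experiment I and by 0.056 in experiment II, cell cycle genes by 0.47 and -0.029, B cell genes by -0.47 and 0.028, and MHC class II genes by -0.58 and 0.0052.

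The mutant spleens, which share no mouse with the wild type comparison, gave nearly the same differences. Of the 7182 genes called in wild type, 7102 (98.9%) had the same sign in the mutant, and all 5560 genes called in both strains had the same sign. Called in the mutant were 6629 genes (40%), with 3121 (18.8%) at day 15 and 5617 (33.9%) at day 44, and r over genes was 0.96. Clec2d was higher by 3.46 ± 0.21 in the mutant, Tgfb1 by 2.29 ± 0.25 and Hspg2 by 1.98 ± 0.18, while H4c12 and Psmb1 were lower, at -2.13 ± 0.19 and -1.84 ± 0.17. Of the histone genes 46 were lower and 2 higher, with a median of -0.99. The test of a difference between the strains in the effect of experiment called 0 genes in limma, also with trended and robust variances, and 475 had an unadjusted p under 0.05. Of these St7l had the smallest p, with -0.29 ± 0.06 (adjusted p = 0.38). Among the mutant arrays of experiment I at day 15, mice 21 and 23 had B cell list means of 9.14 and 9.22, within the 8.96 to 9.34 of day 44, against 9.56 to 10.05 in the other 4, and their MHC class II means, 9.83 and 9.76, also lay within those of day 44 (9.50 to 9.89). In the mutant limma called the change between days for 0 genes, with 1249 at an unadjusted p under 0.05, but for 2114 genes (12.7%) without mice 21 and 23, where 2608 (15.7%) were called at day 15. The difference between the strains was called for 0 genes without them as well.

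In blood of the same wild type mice, where both experiments used kits made for blood and experiment I added a lithium chloride precipitation, 8613 genes (51.9%) differed. Of the genes called in spleen, 3770 (52.5%) were called with the same sign in blood and 970 (13.5%) with the opposite sign. The spleen difference minus the blood difference of the mice passed for 5673 genes (34.2%), 2547 higher (15.3%) and 3126 lower (18.8%). Histone genes, mostly lower in spleen, were mostly higher or not called in blood, with 29 higher and 5 lower in blood, where 28.8% of all genes were higher and 23.1% lower, and a median of 0.26 there, and the tissue difference was called lower in spleen for 46 of the 58. H4c12 was higher in blood by 0.90 ± 0.29 beside -1.96 in spleen, and H4c11 by 1.89 ± 0.31 beside -1.40. Psmb1 was likewise higher in blood by 1.49 ± 0.12, and Fdps lower, at -1.55 ± 0.32, each against its direction in spleen.

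Cd79a was higher in both tissues (2.39 ± 0.16 in blood), as was Tgfb1 (3.06 ± 0.22 in blood, with the difference between tissues not called, adjusted p = 0.16). Endothelial genes were lower in blood in 12 of 24 and higher in 3, and matrix genes lower in 25 of 39 and higher in 4. Of 21 platelet genes 17 were higher in blood, with a median of 1.99, and 0 lower. The 5 genes with the largest tissue contrast are known as liver transcripts. Apoa2 and Apoa1, apolipoproteins of high-density lipoprotein, were lower in blood of experiment II, at -7.02 ± 0.61 and -6.92 ± 0.62, as were Serpina1b, Mup2 and Serpina1d, at -6.78, -6.73 and -6.71. In spleen Apoa2, Apoa1 and Serpina1d were not called (0.09, -0.01 and 0.15), Mup2 was lower, at -0.19, and Serpina1b higher, at 0.59.

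**Figure D5:**
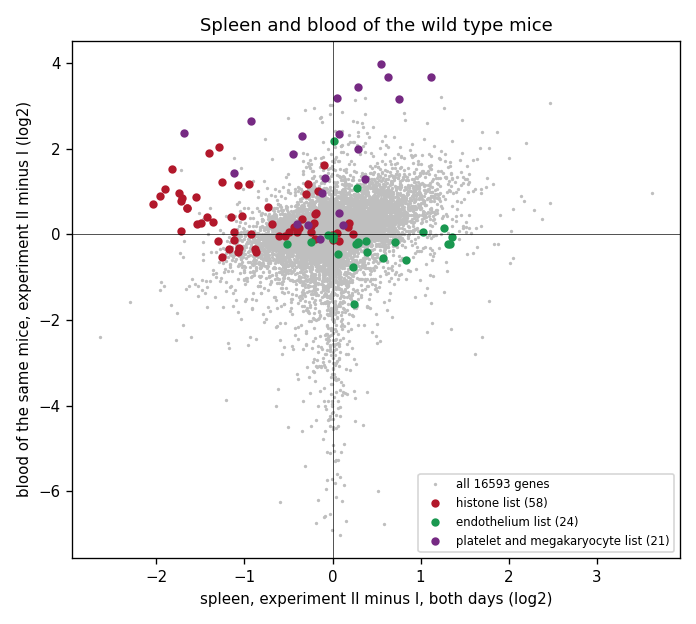
Log2 difference between the experiments in spleen (horizontal) and in blood of the same wild type mice (vertical) for each of 16593 genes, with histone, endothelial and platelet genes in colour. Histone genes lie to the left and largely above 0, and most platelet genes lie above 0 in blood.

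Different probes of a gene did not always move together. Of 4777 genes with more than 1 probe, 442 had probes called in opposite directions between the experiments and 662 had all probes called in the same direction. Csnk1d, a casein kinase, had 4 of 5 probes lower, from -0.27 to -0.62, and 1 higher by 0.86 ± 0.09, and Cd44, an adhesion receptor, had its brightest probe higher by 0.81 ± 0.12, another lower, at -0.50 ± 0.13, and 4 not called. Of 1719 probes with no gene named here, 654 were called, 347 higher and 307 lower.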

How the data were processed

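Per the labels' protocols, RNA of whole spleen and blood was depleted of globin transcripts and hybridised as labelled cRNA to bead arrays. The deposited table holds linear probe intensity for 25697 probes. Its values showed that the authors had quantile normalised the 48 spleen arrays together, over both experiments. Limma is named in the submitters' processing notes. The sources used here give no other upstream step, and the table held no detection values.

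Log2 values had been assumed in the design, so log2 of the intensities was taken first, and each of 16593 genes was represented by the probe whose mean, taken over the 96 spleen and blood arrays, was highest. Names came from the platform annotation, updated through Entrez identifiers, which matched for 23962 probes. Limma 3.58.1 (lmFit, eBayes) in R 4.3.3 was fitted to the 24 arrays with 4 groups of day and experiment, and p-values were adjusted by Benjamini-Hochberg over all genes, with a threshold of 0.05. Mutant spleen and blood were fitted apart. For the tissue contrast, spleen minus blood of each mouse was fitted. The script was tested on simulated data.

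The members, 44 gene lists and the tests were chosen with earlier results of these data known. No test was run over a list. Named genes were the 12 largest rises and falls with the same sign at both days, up to 4 called members of each list by p, and the first 5 of each other contrast. Other genes, such as further histones and markers, were named after their values were seen. Replicates were separate mice, and arrays have no read depth, so their number limits precision. Alternatives in probe choice, normalisation, background, variance model, dim genes, blocking and arrays left out are given in the closing section.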

Additional observations from a re-analysis of the deposited data

Results flagged for a closer look

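The array labelled experiment I, day 15, mouse 22 lay far from the other 5 of its group on several measures, and whether its label is right was not tested. Its first component score was -42.89, with the others at -0.25 to 8.12. For genes, Tgfb1 was at 7.926 there against 9.46 to 10.14 in the others, Msrb1 at 11.44 against 8.53 to 8.71, Cd79a at 9.998 against 11.78 to 12.38 and Cd74 at 13.13 against 14.62 to 14.94. Plvap was at 10.21 against 10.92 to 11.23, Hspg2 at 7.646 against 8.27 to 8.53, Junb at 8.348 against 9.57 to 10.16, Rps15 at 12.05 against 12.89 to 13.09 and Selplg at 10.15 against 11.09 to 11.49. Each of these values lay within the range of the day 44 arrays of experiment I except that of Rps15, which lay just above it (11.54 to 12.01).

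Exocrine pancreas transcripts stood apart in mouse 14 (11.66 against 6.29 to 7.39) and mouse 37 (9.782 against 6.26 to 6.99) of experiment I. In experiment II, Taf15 was at 10.22 in mouse 21 at day 15 against 9.45 to 9.71, and at day 44 mouse 55 stood apart for Tgfb1 (10.39 against 11.37 to 11.84), Hspg2 (9.264 against 9.71 to 9.96) and Fdps (10.34 against 9.58 to 9.85). An array counted as apart when its gap to the nearest array, divided by the range of its group, was above Dixon's 95% critical value. That was so in 16 of 128 combinations of a measure with 1 of the 4 groups of 6 arrays, and 10 of the 16 came from mouse 22. The combinations are thus not independent, and the measures were chosen with their values known. For these reasons the share cannot be set against the 1 in 20 that chance gives in a single group.

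The difference between the experiments itself differed between day 15 and day 44 for 1970 genes. The day 44 difference exceeded that of day 15 by 1.82 for Tgfb1, 1.55 for Cd79a, 1.34 for Cd74, 1.04 for Plvap, 1.18 for Rps15, 1.47 for Selplg and 1.01 for Tmem192. It was more negative for Msrb1 (-2.30), Ccne2 (-1.64), H4c12 (-1.07), Rec8 (-1.005) and Mrpl49 (-0.89).

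Between spleen and blood of the same mice the difference between the experiments was unequal for 5673 genes. Spleen minus blood was 2.67 for Clec2d, 3.32 for Fdps, -2.74 for H2ac15, -2.86 for H4c12, -3.21 for Psmb1 and -1.60 for Klrd1. For transcripts of liver it was 7.10 for Apoa2, 6.91 for Apoa1, 7.37 for Serpina1b, 6.54 for Mup2 and 6.86 for Serpina1d.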

How the results depend on the processing

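Over the planned settings (probe choice, median centring, repeated quantile normalisation, normexp background, trended and robust variances, array weights, dim genes left out, all 48 spleen arrays, pancreas arrays left out), no result reversed. The balance of calls over both days, 3793 higher and 3389 lower, was 3479 and 3806 with arrays centred on their median and 3612 and 3616 with repeated quantile normalisation. Testing every one of 25697 probes called 10781 probes over both days, 4779 at day 15 and 10015 in mutant spleen. Leaving out dim genes called 5732 of the 8296 genes then tested in blood, against 8613 of 16593. The change between days was the least stable: it called 4122 genes with array weights, 0 without the pancreas arrays and 3107 without those and mouse 22, against 1970. Leaving out 1 array at a time gave 1225 (mouse 16 of experiment I) to 3846 (mouse 22) for that change, and 1307 without mouse 14. The same gave 6902 to 7171 over both days, 2453 to 3251 at day 15, 6423 to 7103 at day 44 and 863 to 909 of the list genes. Mutant spleen called 6629 genes with all arrays and 6151 (37.1%) without mice 21 and 23 of experiment I. These and the setting without both kinds of array were chosen after seeing the data. Among single genes, Tmem192, Rps15, Selplg, Mrpl49 and Rec8 did not pass for the change between days without the pancreas arrays (0.91, 1.14, 1.42, -0.78 and -0.92, adjusted p = 0.060), where they had been 1.01, 1.18, 1.47, -0.89 and -1.005, Klk1 did not pass with trended and robust variances, and Cela2a did not pass without the pancreas arrays and mouse 22 (adjusted p = 0.0987). The matrix and fibroblast list median was 0.48 rather than 0.31 over its genes above the median level. The cause was not tested. With mouse number as a random replicate block (numbers shared by the experiments do not mark the same mouse, 2 are shared, correlation 0.030) the change between days was called in 1988 genes. Without pairing of the tissues by mouse, the tissue contrast called 5733 genes against 5673. Dim genes had no detection values, so genes at background could not be set apart.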
